A study of Mus musculus with 9 samples.

Results

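The genes described here are 7 that code for pacemaker channels, T-type calcium channels, a calcium channel auxiliary subunit and connexins: Hcn2, Hcn4, Cacna1g, Cacna1h, Cacnb2, Gja1 and Gja5. They were taken by symbol from the 22036 annotated genes of the count table, where each symbol occurred in 1 row. All 7 passed the filter on low counts and are among the 14160 genes tested. No sodium channel gene is among the 7, and subunits and regulators of the sodium channel are given below only as part of a wider list.

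RNA from left ventricular tissue of wild-type mice was sequenced in 9 libraries, with 3 labelled biological replicates per group. The 3 groups were a control adeno-associated virus (AAV) with a diet abbreviated ND (taken as normal diet; ND AAV-CON), that control virus with a diet abbreviated HFD (taken as high-fat; HFD AAV-CON), and, also on HFD, an AAV for BCKDK (HFD AAV-BCKDK), the kinase that inhibits the branched-chain α-ketoacid dehydrogenase. All groups thus carried an AAV. The labels state no age, sex, strain, diet length, vector dose or vector promoter.

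HCN channels open when the membrane is hyperpolarised and carry the inward funny current, which drives spontaneous depolarisation in the sinoatrial node. HCN4 is the main nodal isoform, while HCN2 is the isoform usually found in working ventricular muscle. CACNA1G and CACNA1H form the pores of the T-type channels CaV3.1 and CaV3.2, which open at negative voltages, are prominent in the fetal heart and conduction system, and are low in the adult ventricle. CACNB2 is the β subunit that brings the L-type calcium channel to the membrane. Connexin 43, from Gja1, forms the gap junctions between ventricular cardiomyocytes, and connexin 40, from Gja5, is found in atria, in the His-Purkinje system and in arterial endothelium.

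On the mouse build mm10, Hcn2 (ENSMUSG00000020331) lies on chromosome 10 from 79716634 to 79736108 and Gja1 (ENSMUSG00000050953) on chromosome 10 from 56377330 to 56402513, both on the plus strand. Hcn4 (ENSMUSG00000032338) lies on chromosome 9 from 58823412 to 58863175, Cacnb2 (ENSMUSG00000057914) on chromosome 2 from 14603088 to 14987908 and Gja5 (ENSMUSG00000057123) on chromosome 3 from 96904693 to 97077416, each on the plus strand. Cacna1g (ENSMUSG00000020866) lies on the minus strand of chromosome 11 from 94408391 to 94474198, and Cacna1h (ENSMUSG00000024112) on the minus strand of chromosome 17 from 25374285 to 25433783. Exons of other annotated genes on the opposite strand overlap 2.87% of the exonic bases of Gja5, where the other gene is Gpr89, and 1.62% of those of Cacna1h, where it is Tpsg1. Antisense or pseudogene exons (Gm10849, Gm13269 and Gm10848) overlap 4.67%, 1.81% and 0.839% of those of Cacnb2. Since use of strand in counting is not stated, reads in those stretches cannot be told apart.

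Start site windows are shown for the 4 genes that passed a test below. They come from RefSeq on GRCm38.p6, the build of mm10, and run from 250 bases before the start to 50 after it. Windows were found for 5 of the 7 genes, and Cacnb2 has 2. Capitals mark, on either strand, a GC box (GGGCGG), an AP-1 site (TGANTCA), an NKX2-5 site (TNAAGTG) or the core of a cAMP response element (TGACGT).
Hcn2, chr10:79716384-79716683, plus strand: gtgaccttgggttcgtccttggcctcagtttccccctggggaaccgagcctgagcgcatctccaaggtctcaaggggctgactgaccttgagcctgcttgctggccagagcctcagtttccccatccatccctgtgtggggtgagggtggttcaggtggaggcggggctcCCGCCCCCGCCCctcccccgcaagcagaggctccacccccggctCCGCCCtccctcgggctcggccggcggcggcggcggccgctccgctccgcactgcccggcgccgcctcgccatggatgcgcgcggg
Hcn4, chr9:58822699-58822998, plus strand: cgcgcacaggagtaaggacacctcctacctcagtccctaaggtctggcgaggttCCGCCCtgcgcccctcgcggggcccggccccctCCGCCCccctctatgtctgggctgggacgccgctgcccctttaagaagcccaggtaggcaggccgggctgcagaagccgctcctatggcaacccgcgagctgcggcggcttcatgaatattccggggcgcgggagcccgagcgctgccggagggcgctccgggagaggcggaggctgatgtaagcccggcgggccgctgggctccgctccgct
Cacnb2, upstream start, chr2:14604056-14604355, plus strand: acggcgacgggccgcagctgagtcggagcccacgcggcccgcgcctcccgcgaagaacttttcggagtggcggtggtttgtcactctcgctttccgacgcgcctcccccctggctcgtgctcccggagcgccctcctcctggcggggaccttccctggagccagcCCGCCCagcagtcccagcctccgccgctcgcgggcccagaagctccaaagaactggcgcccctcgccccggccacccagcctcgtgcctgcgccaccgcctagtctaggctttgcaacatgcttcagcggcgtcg
Cacnb2, internal start, chr2:14823842-14824141, plus strand: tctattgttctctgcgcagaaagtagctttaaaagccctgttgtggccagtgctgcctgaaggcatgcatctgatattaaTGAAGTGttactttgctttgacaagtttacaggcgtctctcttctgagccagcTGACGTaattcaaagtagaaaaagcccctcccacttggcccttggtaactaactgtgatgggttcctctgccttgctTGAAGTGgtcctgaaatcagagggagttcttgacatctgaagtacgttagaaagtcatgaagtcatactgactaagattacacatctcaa
Gja1, chr10:56377050-56377349, plus strand: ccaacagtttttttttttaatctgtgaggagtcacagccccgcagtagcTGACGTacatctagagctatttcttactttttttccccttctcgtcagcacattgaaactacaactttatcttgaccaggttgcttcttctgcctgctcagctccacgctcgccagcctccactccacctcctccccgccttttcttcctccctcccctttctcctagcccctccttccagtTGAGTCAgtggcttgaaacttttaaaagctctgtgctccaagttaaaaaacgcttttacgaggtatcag

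The windows of the 2 pacemaker channel genes are alike in base composition, at 72.3% G and C for Hcn2 and 71.7% for Hcn4, against a median of 52.7% over 32851 windows. Hcn2 holds 3 GC boxes and Hcn4 holds 2, a motif present in 35.7% of all windows. Gja1, at 47.7% G and C, holds none, but has an AP-1 match from 19 bases before the start, a motif in 7.81% of all windows, and a TGACGT match (7.51% of all windows). Cacnb2 differs between its starts. The upstream window is 71.7% G and C with 1 GC box, and the internal window is 44.0% G and C with 2 NKX2-5 matches (11.5% of all windows) and 1 TGACGT match. No CCAAT match (37.4% of all windows) and no T-box match (GGTGTNA, 10.2%) was found in these windows. Gene counts do not tell the starts of Cacnb2 apart, and a match is a run of letters and not a measured site.

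Libraries held 32803233 to 45483044 counts in annotated genes. Levels are given as CPM, counts divided by a library size that was scaled by TMM (trimmed mean of M values), which sets the typical gene equal between libraries. Bckdk was highest where its vector was given, at 111 to 126 CPM in HFD AAV-BCKDK against 37.1 to 65.0 in HFD AAV-CON and 70.3 to 78.6 in ND AAV-CON. Mitochondrially encoded transcripts took 26.1% to 39.9% of counts in HFD AAV-CON and 42.1% to 47.6% in the other 6 libraries. HFD AAV-CON replicate 3 ranked in the middle of its group for 64.1% of genes, against 14.8% to 37.1% for each other library, and 1.02% of its counts fell in unnamed loci, against 4.75% to 6.01%. The files do not settle whether it is a sample of its own, and n = 3, the SDs and the tests below all count HFD AAV-CON as 3 samples. Values without it are given where they end a call or move a count by more than 1.5 times. The ventricular light chain Myl2 stood at 1470 to 4620 CPM in all libraries and the atrial light chain Myl7 at 0.328 CPM or below.

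**Figure D1:**
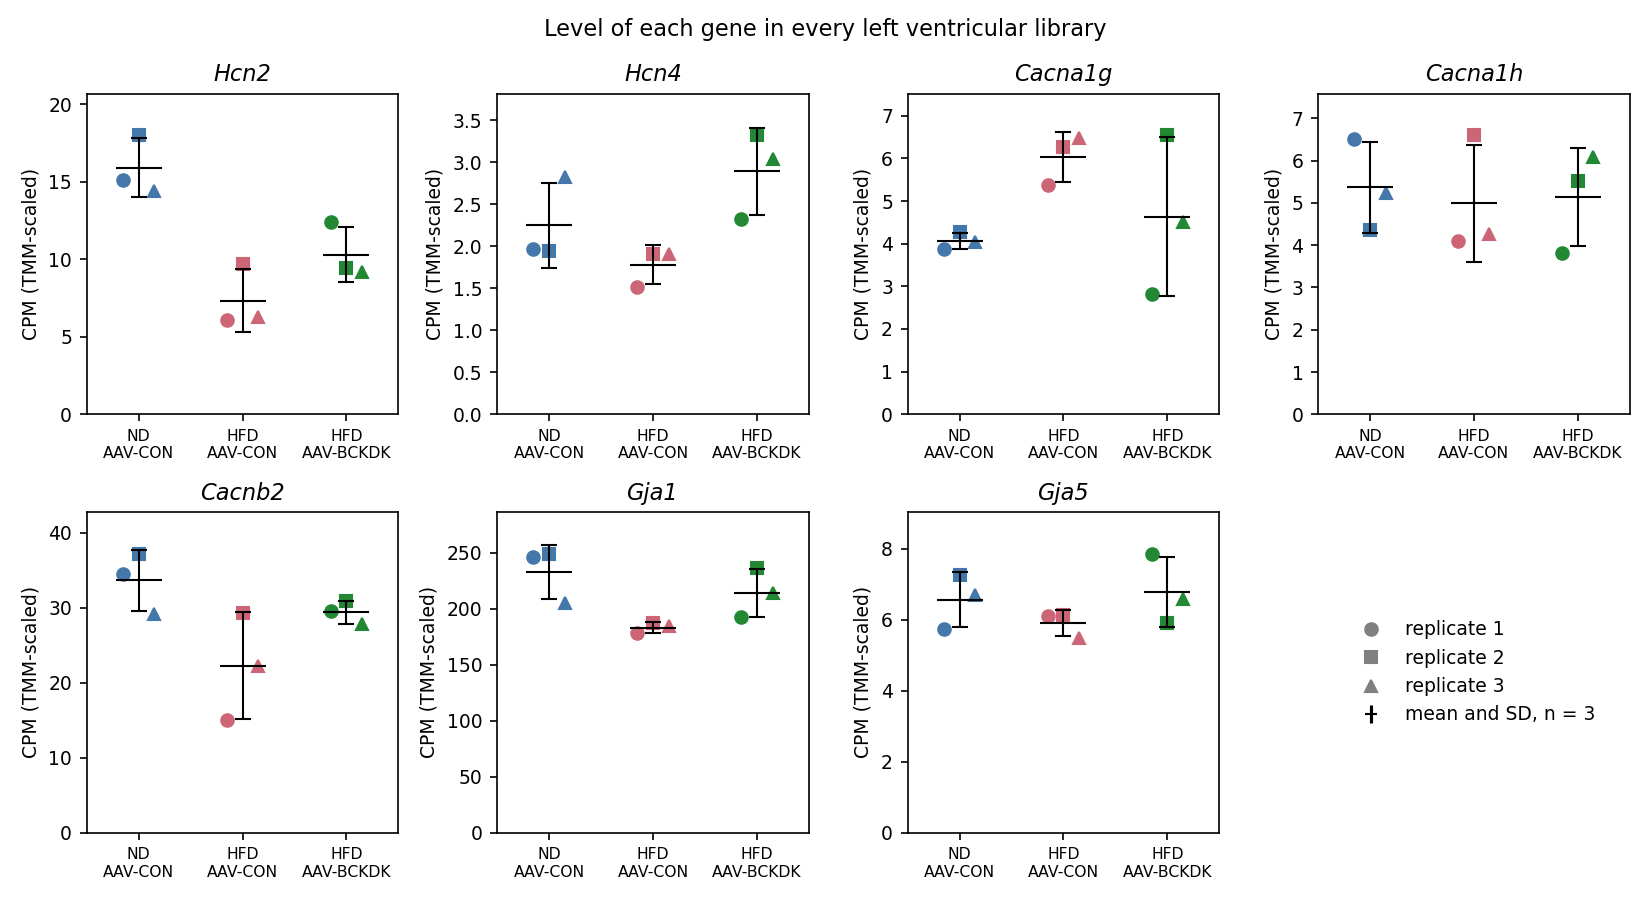
Level of each of the 7 genes in CPM of TMM-scaled library sizes (vertical axes, from 0) in the 3 groups (horizontal axes), with a symbol per replicate and the mean and SD over 3 replicates in black. The HFD AAV-CON libraries lie below every ND AAV-CON library for Hcn2, for Gja1 and, by a narrow gap and without passing the test, for Hcn4. For Gja1 and Hcn4, but not Hcn2, the fitted direction turns when libraries are scaled by total counts.

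Among the 7 genes, Gja1 was the most abundant per length and Hcn4 or Cacna1g the least. On the scale of CPM per kb of exon, Gja1 averaged 22.8 ± 2.37 (SD, n = 3) for ND AAV-CON, 17.9 ± 0.475 for HFD AAV-CON, and with the BCKDK vector 20.9 ± 2.07. Hcn2 came next in ND AAV-CON at 4.97 ± 0.595 CPM per kb, then Cacnb2 at 2.54 ± 0.307, Gja5 at 1.14 ± 0.134, Cacna1h at 0.550 ± 0.110, Cacna1g at 0.401 ± 0.019 and Hcn4 at 0.367 ± 0.0824. Each neighbour in this order was separated from the next in all 3 libraries, except Cacna1g and Hcn4, whose ranges overlapped. In HFD AAV-CON, Hcn2 (2.30 ± 0.640 CPM per kb) and Cacnb2 (1.68 ± 0.539) overlapped, and Cacna1g (0.596 ± 0.0582) stood above Cacna1h (0.511 ± 0.143) with overlapping ranges. In HFD AAV-BCKDK, Hcn2 (3.23 ± 0.551 CPM per kb) again lay above Cacnb2 (2.23 ± 0.114) without overlap, and Cacna1h, Hcn4 and Cacna1g, in that order of means, overlapped with their neighbours. Exon lengths were taken from GENCODE M21, which may differ from the annotation that was counted.

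The effect of the diet, with the control vector in both groups, was read from HFD AAV-CON against ND AAV-CON. Of the 7 genes, 3 fell (Hcn2, Cacnb2 and Gja1), 0 rose and 4 did not pass the edgeR quasi-likelihood test, with a median log2 change of -0.34. Over all genes tested, 43.3% passed in this comparison, 22.7% upward and 20.6% downward, with a median change of -0.00179, so a count of 3 of 7 is near the share of all genes. With total-count scaling 1 of the 7 rose (Cacna1g) and 1 fell (Hcn2), and with scaling to cardiomyocyte genes 2 rose (Cacna1g and Gja5) and 0 fell. The 2 groups did not overlap for 4 of the 7 genes, 1 higher and 3 lower, against 55.3% of all genes, 28.2% higher and 27.1% lower. Hcn2 had the largest fitted change of the 7 when scaled by TMM, and Cacna1g with total-count or cardiomyocyte scaling.

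Hcn2, the ventricular pacemaker channel isoform with the GC-rich start shown above, stood at 15.1, 18.0 and 14.4 CPM in ND AAV-CON replicates 1, 2 and 3. In HFD AAV-CON it stood at 6.06, 9.69 and 6.25 CPM. Every high-fat library with the control vector was below every normal-diet library, and replicate 2 lay closest to them. The fitted change was -1.12 on the log2 scale (SE 0.20, 95% confidence interval -1.57 to -0.67, edgeR adjusted p = 0.00259). Leaving out each library in turn gave -1.37 to -1.0 with the call kept, and without HFD AAV-CON replicate 3 it was -1.02 (adjusted p = 0.0142). Scaled by the summed counts of 16 cardiomyocyte genes, the change was -0.40 and the call was lost (adjusted p = 0.0748).

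Hcn4, the nodal isoform, was measured at low counts, 68 to 128 per library. Its levels were 1.97, 1.94 and 2.83 CPM in ND AAV-CON against 1.51, 1.91 and 1.91 CPM for HFD AAV-CON. The groups were separated by a narrow gap, and the change of -0.34 (SE 0.24, 95% confidence interval -0.88 to 0.20, edgeR adjusted p = 0.27) did not pass. Without ND AAV-CON replicate 3, the highest of its group, it was -0.146.

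The T-type pore genes did not pass the test for the diet. Cacna1g, coding for CaV3.1, stood at 3.88, 4.27 and 4.04 CPM in ND AAV-CON and at 5.37, 6.27 and 6.48 CPM in HFD AAV-CON. All 3 high-fat libraries were above all 3 normal-diet libraries, but the change of 0.57 (SE 0.25, 95% confidence interval 0.00 to 1.14) had an edgeR adjusted p of 0.0941 with an unadjusted p of 0.0493. It passed in a fit of these 2 groups alone (0.57, adjusted p = 0.0214), with total-count scaling (0.96, adjusted p = 0.0137) and with cardiomyocyte scaling (1.33, adjusted p = 0.00402). It also passed on leaving out HFD AAV-BCKDK replicate 1 (0.569, adjusted p = 0.0276) or 2 (0.569, adjusted p = 0.044). Cacna1h, coding for CaV3.2, stood at 6.51, 4.37 and 5.23 CPM in ND AAV-CON and at 4.11, 6.60 and 4.27 CPM in HFD AAV-CON. Its groups overlapped throughout, with a change of -0.11 (SE 0.25, 95% confidence interval -0.67 to 0.45).

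Cacnb2, the β subunit of the L-type channel, stood at 34.5, 37.2 and 29.2 CPM in ND AAV-CON and at 15.1, 29.3 and 22.3 CPM in HFD AAV-CON. It was lowest in HFD AAV-CON replicate 1, while replicate 2 lay within the normal-diet range. The fitted fall was -0.60 (SE 0.20, 95% confidence interval -1.06 to -0.14, edgeR adjusted p = 0.0383). This call was lost without any of 7 of the 9 libraries, among them HFD AAV-CON replicate 1 (-0.386, adjusted p = 0.0636) and replicate 3 (-0.605, adjusted p = 0.0914). The fold was -0.855 without HFD AAV-CON replicate 2, -0.245 under total-count scaling and 0.097 with cardiomyocyte scaling.

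Gja1, the connexin of the ventricular gap junction, stood at 246, 249 and 205 CPM in ND AAV-CON and at 178, 187 and 185 CPM in HFD AAV-CON. The high-fat libraries lay close together and below every normal-diet library. Gja1 fell by 0.35 on the log2 scale (SE 0.11, 95% confidence interval -0.59 to -0.11, edgeR adjusted p = 0.0246), but the value was 0.0485 with total-count and 0.421 with cardiomyocyte scaling. Leaving out ND AAV-CON replicate 1 (adjusted p = 0.0791) or 2 (0.0868) ended the call, as did leaving out HFD AAV-CON replicate 1 (0.0568) or 3 (0.0718). Gja5, the connexin of atria, Purkinje fibres and arteries, stood at 5.74, 7.26 and 6.69 CPM in ND AAV-CON and at 6.11, 6.14 and 5.48 CPM in HFD AAV-CON. These ranges overlapped, and the change of -0.15 (SE 0.15, 95% confidence interval -0.48 to 0.18, adjusted p = 0.425) did not pass.

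Directions in this data set are relative to the typical gene. With total-count scaling the median of all genes moved to 0.398 for the diet and -0.468 for the vector, and with cardiomyocyte scaling to 0.773 and -0.672. A scaling moves all genes nearly alike, so a value relative to that median holds almost by construction and is given only as a description. Relative to it, Hcn2 lay between -1.17 and -1.12, Cacnb2 between -0.68 and -0.60, Gja1 at -0.35 and Cacna1g between 0.56 and 0.57 for the diet.

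**Figure D2:**
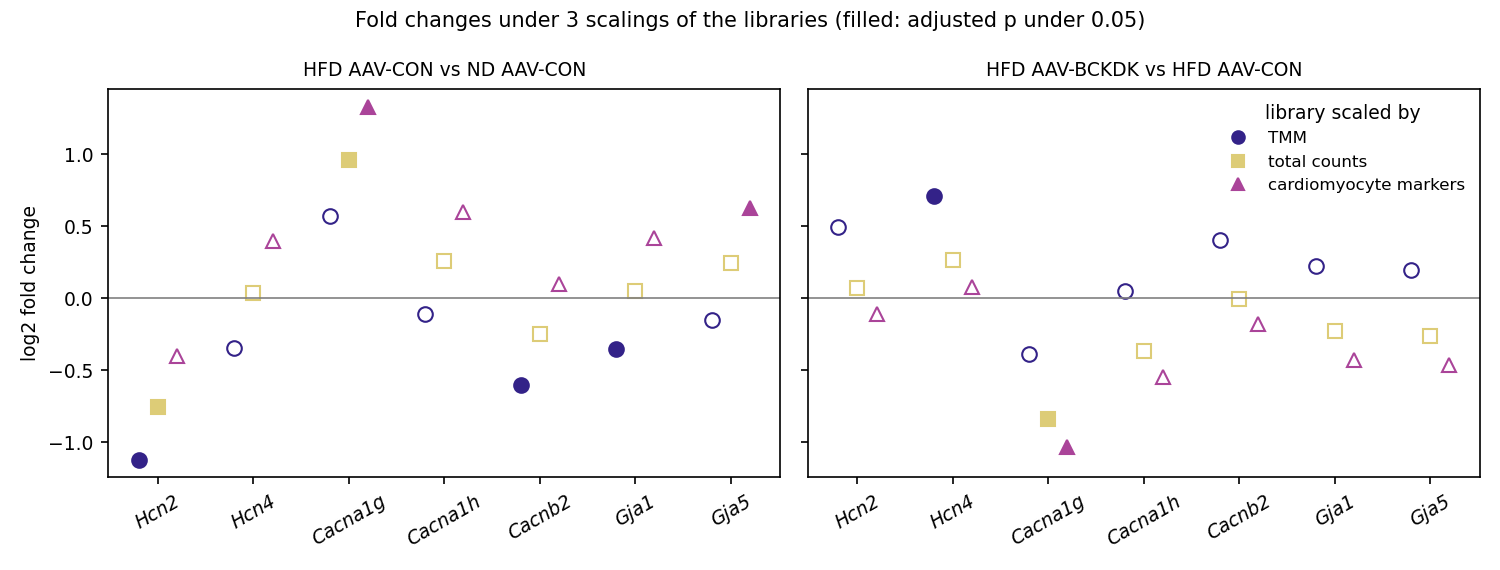
Log2 fold change (vertical axis) of each gene for the diet (left) and the vector (right) with libraries scaled by TMM, by total annotated counts or by the summed counts of 16 cardiomyocyte genes; filled symbols passed an adjusted p of 0.05. For the diet, Hcn2 lies below 0 under each of the 3 scalings (-1.12, -0.752 and -0.40) and Cacna1g above 0, while Gja1, Gja5, Hcn4 and Cacna1h change sign with total counts and Cacnb2 with cardiomyocyte genes.

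The effect of the BCKDK vector on the high-fat diet was read from HFD AAV-BCKDK against HFD AAV-CON. It shares the HFD AAV-CON libraries with the comparison above, so the 2 sets of changes are not independent. Of the 7 genes, Hcn4 rose, 0 fell and 6 did not pass, with a median log2 change of 0.23. Over all genes, 38.2% passed, 17.3% upward and 20.9% downward, with a median of -0.0101. With total-count or cardiomyocyte scaling the 1 gene that passed was Cacna1g, downward. The groups did not overlap for 2 of the 7 genes, Hcn4 and Gja1, both higher, against 51.2% of all genes, 24% higher and 27.3% lower.

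Hcn4 stood at 2.32, 3.32 and 3.04 CPM in HFD AAV-BCKDK, above each of the 3 HFD AAV-CON values given above. It changed by 0.71 (SE 0.24, 95% confidence interval 0.17 to 1.25, edgeR adjusted p = 0.0428). The call ended on leaving out ND AAV-CON replicate 1 (adjusted p = 0.0523), HFD AAV-CON replicate 1 (0.125) or 3 (0.0815), or HFD AAV-BCKDK replicate 2 (0.127) or 3 (0.102), and the value was 0.267 with total-count and 0.0765 with cardiomyocyte scaling. It was also lost in a fit of the 2 groups alone (0.71, adjusted p = 0.0541) and with no filter on low counts (0.708, adjusted p = 0.0509).

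Hcn2 stood at 12.4, 9.44 and 9.19 CPM in HFD AAV-BCKDK. HFD AAV-CON replicate 2, at 9.69 CPM, lay within that range and replicates 1 and 3 below it. The change of 0.50 (SE 0.20, 95% confidence interval 0.05 to 0.95) had an edgeR adjusted p of 0.075. Without HFD AAV-CON replicate 2 it was 0.769 (adjusted p = 0.00366), and with cardiomyocyte scaling it was -0.108. Cacnb2 stood at 29.6, 30.9 and 27.9 CPM in HFD AAV-BCKDK, a narrower spread than in HFD AAV-CON (SD 1.51 against 7.13 CPM). Its change of 0.41 (SE 0.20, 95% confidence interval -0.05 to 0.86, adjusted p = 0.14) passed only without HFD AAV-CON replicate 2 (0.682, adjusted p = 0.00739), among the alternatives run.

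Cacna1g varied most within HFD AAV-BCKDK, at 2.83, 6.54 and 4.51 CPM. Replicate 2 lay above all HFD AAV-CON libraries and replicate 1 below all libraries of the study. The change of -0.38 (SE 0.25, 95% confidence interval -0.95 to 0.18, adjusted p = 0.254) was -0.708 without HFD AAV-BCKDK replicate 2 (adjusted p = 0.0477), and -0.835 with total-count scaling (adjusted p = 0.024). Cacna1h stood at 3.82, 5.51 and 6.08 CPM, with a change of 0.05 (SE 0.25, 95% confidence interval -0.51 to 0.61). In the TMM-scaled fit of all 9 libraries, neither T-type gene passed the test in this comparison.

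Gja1 stood at 193, 236 and 214 CPM in HFD AAV-BCKDK, above each HFD AAV-CON library. The change of 0.23 (SE 0.11, 95% confidence interval -0.01 to 0.46) had an edgeR adjusted p of 0.116, and the sign turned with total-count scaling (-0.228). Gja5 stood at 7.85, 5.90 and 6.58 CPM, overlapping with HFD AAV-CON, and changed by 0.20 (SE 0.15, 95% confidence interval -0.13 to 0.53, adjusted p = 0.311), or -0.259 with total-count scaling.

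**Figure D3:**
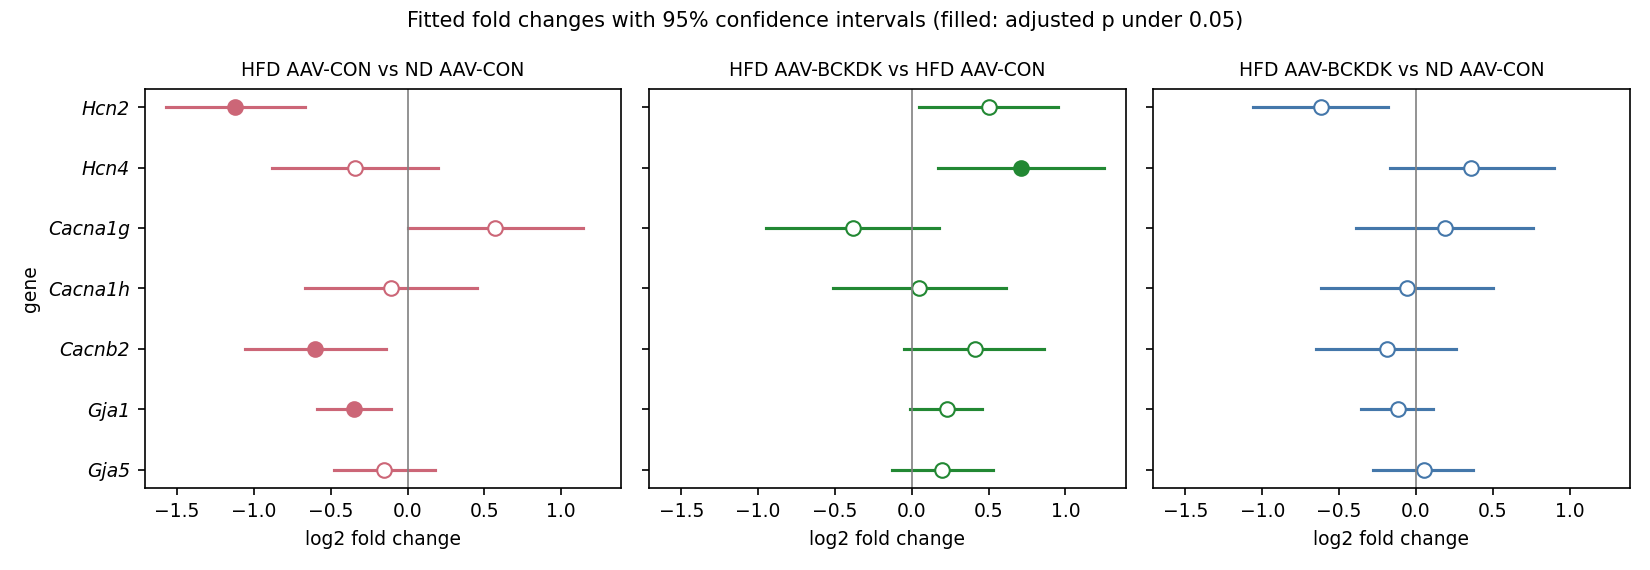
Fitted log2 fold change (horizontal axis) with its 95% confidence interval for each gene (vertical axis) in the 3 comparisons, scaled by TMM; filled points passed an edgeR adjusted p of 0.05. Hcn2, Cacnb2 and Gja1 pass for the diet (the sign of Gja1 turns with total-count scaling, and those of Gja1 and Cacnb2 with cardiomyocyte scaling), Hcn4 passes for the vector, and no gene passes between HFD AAV-BCKDK and ND AAV-CON.

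HFD AAV-BCKDK and ND AAV-CON differ in diet and vector together. In edgeR, 0 of the 7 genes passed here, 1 (Hcn2) had an unadjusted p under 0.05, and DESeq2 called 0 as well; 2.45% of all genes passed, 1.18% upward and 1.27% downward. Hcn2 was the only one of the 7 whose groups did not overlap, against 27.7% of all genes. Its 9.19 to 12.4 CPM under the BCKDK vector lay below the 14.4 to 18.0 CPM of ND AAV-CON, with a change of -0.62 (SE 0.20, 95% confidence interval -1.06 to -0.18, adjusted p = 0.147), and it passed in a fit of the 2 groups alone (-0.609, adjusted p = 0.0426) and without HFD AAV-CON replicate 2 (-0.602, adjusted p = 0.0413). For Gja1 the change was -0.12 with an interval of -0.36 to 0.11, and for Gja5 it was 0.05 with an interval of -0.28 to 0.37. For Cacnb2 it was -0.19 (interval -0.65 to 0.26), for Hcn4 0.36 (-0.17 to 0.90), for Cacna1g 0.19 (-0.39 to 0.76) and for Cacna1h -0.06 (-0.62 to 0.50). Where these intervals span 0, the data do not exclude a difference of either sign within them.

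Ratios of paired genes within a library do not depend on how libraries are scaled. In ND AAV-CON the count ratio of Hcn2 to Hcn4 was 7.69, 9.28 and 5.11. HFD AAV-CON had ratios of 4.02, 5.07 and 3.27, and HFD AAV-BCKDK of 5.32, 2.84 and 3.02. The high-fat control libraries were each below the lowest normal-diet library, the closest pair being 5.07 and 5.11. The log2 ratio differed by -0.82 between them (exact permutation p = 0.1, the smallest that 3 against 3 can give; 0.36 adjusted over the 9 ratio tests). Between HFD AAV-BCKDK and ND AAV-CON it differed by -1.0 (exact permutation p = 0.2), with an overlap through replicate 1 of the former. Between HFD AAV-BCKDK and HFD AAV-CON it differed by -0.18 (exact permutation p = 0.6).

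In ND AAV-CON the count ratio of Cacna1g to Cacna1h was 0.597, 0.975 and 0.773. HFD AAV-CON had ratios of 1.31, 0.951 and 1.52, and HFD AAV-BCKDK of 0.741, 1.19 and 0.742. In replicates 1 and 3 of HFD AAV-CON the CaV3.1 gene had more counts than the CaV3.2 gene, and in every ND AAV-CON library it had fewer. The groups overlapped through HFD AAV-CON replicate 2, and the log2 difference of 0.69 had an exact permutation p of 0.2. The vector comparison gave -0.51 (exact permutation p = 0.2). The count ratio of Gja5 to Gja1 stayed low in all groups, at 0.0284 ± 0.00469 (SD, n = 3) for ND AAV-CON, 0.0323 ± 0.0024 for HFD AAV-CON, and with the BCKDK vector 0.0321 ± 0.00789. None of these 9 tests can pass a threshold of 0.05 with 3 libraries a group.

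**Figure D4:**
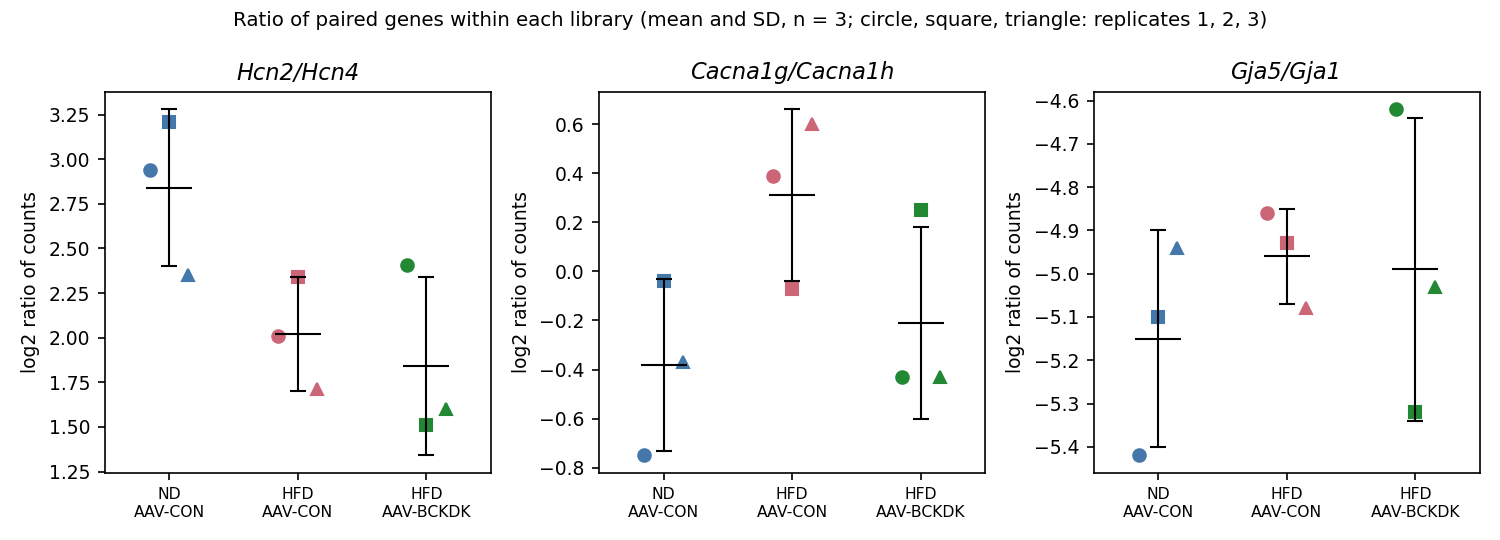
Log2 ratio of the counts of paired genes within each library (vertical axes, which do not start at 0) in the 3 groups, with a symbol per replicate and the mean and SD over 3 replicates. The Hcn2 to Hcn4 log2 ratio averages 2.84 for ND AAV-CON, 2.02 for HFD AAV-CON, and with the BCKDK vector 1.84. Its ranges are separate only between HFD AAV-CON and ND AAV-CON, and the other 2 ratios overlap in every comparison.

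The wider lists were read in the same way, as changes relative to the typical gene, and their directions depend on the scaling more than those of single genes with large changes. Of 9 listed HCN channels and partners, 5 were tested, and 1 rose and 1 fell under the diet. Lrmp, an endoplasmic reticulum protein that regulates HCN4 and is also expressed in lymphoid cells, rose by 1.72 (SE 0.30, adjusted p = 0.00235), and Mrvi1, a related HCN4 regulator known from smooth muscle, fell by 0.66 (SE 0.11, adjusted p = 0.00225). In the vector comparison, which shares the HFD AAV-CON libraries, Lrmp passed at -1.97 (SE 0.31) and Mrvi1 at 0.36 (SE 0.11). Lrmp kept its call under total-count and cardiomyocyte scaling, whereas Mrvi1 lost it, at -0.273 and 0.0908 for the diet. Mrvi1 did not pass for the vector without HFD AAV-CON replicate 1 (0.353) or 3 (0.318), nor without HFD AAV-BCKDK replicate 2 (0.345) or 3 (0.329). The HCN isoform gene Hcn3 had 2 to 9 counts a library and was not tested, and the HCN partner Kcne2 had 0 counts in every library, which allows up to 3.

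Of 21 other genes of voltage-gated calcium channels and their regulators, 16 were tested. Under the diet 2 rose and 3 fell, with a median of -0.16, and for the vector 3 rose and 3 fell, with a median of 0.25. With total-count scaling these counts were 4 and 0, with a median of 0.227, for the diet, and 0 and 5, with a median of -0.195, for the vector. Without HFD AAV-CON replicate 3 there was 1 rise and 1 fall for the diet, and 2 rises and 1 fall for the vector, and over all libraries left out in turn the counts ran from 1 to 3 rises and 1 to 4 falls for the diet and from 1 to 4 of each for the vector. Cacna1c, the L-type pore of the ventricle that CACNB2 accompanies, stood at 120 ± 7.52 CPM (SD, n = 3) in ND AAV-CON against 95.6 ± 19.1 for HFD AAV-CON (-0.33, SE 0.14, adjusted p = 0.0842). Its accessory subunit Cacna2d1 fell by 0.59 (SE 0.14, adjusted p = 0.00951) and passed upward for the vector at 0.57 (SE 0.14, adjusted p = 0.0137), but did not pass for the vector without HFD AAV-BCKDK replicate 2 (0.49, adjusted p = 0.0526) or in either comparison with total-count scaling (-0.217 and 0.146) and was at 0.137 for the diet with cardiomyocyte scaling. The small GTPases Rrad, Gem and Rem1 bind β subunits and inhibit the L-type channel. For the diet Rrad rose by 0.85 (SE 0.21), Gem rose by 0.49 (SE 0.14) and Rem1 fell by 0.54 (SE 0.19), but Rem1 was at 0.264 with cardiomyocyte scaling and both calls depended on single libraries. Gem did not pass without HFD AAV-CON replicate 1 (0.375) or 3 (0.472) or ND AAV-CON replicate 2 (0.458) or 3 (0.425), and of the 9 fits that left out a library Rem1 passed in those without HFD AAV-CON replicate 1 or HFD AAV-BCKDK replicate 1 or 2 and in no other. The vector comparison gave 0.12 (SE 0.21, adjusted p = 0.671) for Rrad, while Gem fell by 1.10 (SE 0.15, adjusted p = 0.00146) and Rem1 rose by 0.92 (SE 0.19, adjusted p = 0.00682), the latter not passing with total-count scaling (0.443). The other β subunit genes did not pass for the diet: Cacnb1 at 0.30 (SE 0.17), Cacnb3 at 0.52 (SE 0.19, adjusted p = 0.0506) and Cacnb4 at -0.70 (SE 0.30). For the vector Cacnb1 fell by 0.62 (SE 0.17, adjusted p = 0.0209) and Cacnb3 fell by 0.55 (SE 0.19, adjusted p = 0.048), where Cacnb2 was at 0.41 and Cacnb4 at 0.56 (SE 0.30, adjusted p = 0.166) without passing. Without HFD AAV-CON replicate 1 or 3 neither fall passed (Cacnb1 -0.506 and -0.57, Cacnb3 -0.359 and -0.519), and of the 9 fits that left out a library Cacnb3 passed only in that without HFD AAV-CON replicate 2. The third T-type pore gene, Cacna1i, had 7 counts at most in any library and was not tested.

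Of 14 sodium channel subunits and regulators, 10 were tested, with 1 rise and 2 falls for the diet and 3 rises and 1 fall for the vector. With total-count scaling there were 3 rises and 1 fall for the diet, and 0 rises and 2 falls for the vector. Without HFD AAV-CON replicate 3 there were 0 rises and 1 fall for the vector, as without HFD AAV-BCKDK replicate 2 or 3, and without HFD AAV-CON replicate 2 there were 5 rises and 2 falls. For the diet the counts moved only without HFD AAV-CON replicate 2, to 1 rise and 4 falls. Fgf13, an intracellular factor that binds sodium channels, fell by 0.93 under the diet (SE 0.17, adjusted p = 0.00261), and Gpd1l, which regulates the cardiac sodium current, fell by 0.46 (SE 0.11, adjusted p = 0.00753), with Gpd1l at 0.277 under cardiomyocyte scaling. With that scaling 3 genes of the list rose and 0 fell for the diet, so the fall of Fgf13 did not pass either. The β4 subunit Scn4b averaged 55.7 ± 1.27 CPM (SD, n = 3) for ND AAV-CON, 44.3 ± 24.2 for HFD AAV-CON, and with the BCKDK vector 84.7 ± 8.76, and rose for the vector by 0.94 (SE 0.32, adjusted p = 0.0427), a call lost with total-count scaling (0.565), without HFD AAV-CON replicate 3 (0.899, adjusted p = 0.114) and without any of the ND AAV-CON or HFD AAV-BCKDK libraries (adjusted p from 0.0584 to 0.114).

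Of 20 other connexins and pannexins, 8 were tested, and 3 rose and 1 fell under the diet, with the same counts under total-count scaling and 6 rises and 0 falls under cardiomyocyte scaling. Without HFD AAV-CON replicate 1 or 3 or ND AAV-CON replicate 1 or 2 there was 1 rise and 1 fall. The pannexin Panx1, a large-pore channel that releases ATP, rose by 2.54 (SE 0.35, adjusted p = 9.89e-04). The connexin Gja3 fell by 0.96 (SE 0.19, adjusted p = 0.00385) from 11.1 ± 1.38 to 5.69 ± 1.39 CPM (SD, n = 3) and passed upward for the vector at 0.78 (SE 0.19), a call lost with total-count scaling (0.356). Gjd3 and Gjb5 also rose, from means of 0.0673 and 0.105 to 0.646 and 0.560 CPM, and neither passed without HFD AAV-CON replicate 3 (adjusted p = 0.0865 and 0.143) or 1 (0.0605 and 0.101), or ND AAV-CON replicate 1 or 2, nor Gjb5 without ND AAV-CON replicate 3. The arterial connexin Gja4 (-0.21, SE 0.11, adjusted p = 0.165) and connexin 45, from Gjc1 (-0.10, SE 0.10, adjusted p = 0.467), did not pass for the diet.

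Of 19 genes of the intercalated disc, where connexin 43 lies, 10 fell and 1 rose under the diet, with a median of -0.43, and for the vector 9 rose and 0 fell. With total-count scaling 3 fell and 2 rose for the diet, and 1 rose and 6 fell for the vector, and with cardiomyocyte scaling 7 rose and 1 fell for the diet. On leaving out each library in turn 8 to 15 fell for the diet and 5 to 13 rose for the vector, the lowest vector count being that without HFD AAV-CON replicate 3 or HFD AAV-BCKDK replicate 2. Pkp2, a desmosomal plakophilin, fell by 0.73 (SE 0.08, adjusted p = 5.78e-04), but was at 0.0274 with cardiomyocyte scaling. The desmosomal cadherins Dsc2 and Dsg2 fell by 1.09 (SE 0.14) and fell by 1.10 (SE 0.18), and both also passed with total-count scaling, at -0.71 and -0.741. With cardiomyocyte scaling, where 1 gene of the list fell, at most 1 of these cadherins kept its call. The ankyrin gene Ank3 fell by 0.56 (SE 0.09), with -0.167 under total-count and 0.205 under cardiomyocyte scaling. Dsc2 changed by 0.13 for the vector (SE 0.14, adjusted p = 0.498). Among 20 tested transcription factors of conduction and chamber patterning, 2 rose and 9 fell for the diet, or 4 and 2 with total-count and 10 and 2 with cardiomyocyte scaling. The falls were 4 without HFD AAV-CON replicate 1 or 3 or ND AAV-CON replicate 1, and 12, with 5 rises, without HFD AAV-CON replicate 2. Tbx5, which activates conduction genes including Gja5, fell by 1.16 (SE 0.22, adjusted p = 0.00344) and passed under all 6 scalings (-0.809 with total counts, -0.47 with cardiomyocyte genes). Mef2c fell by 0.69 (SE 0.09) and Irx5 fell by 0.72 (SE 0.19), at 0.0851 and 0.0386 with cardiomyocyte scaling, Irx5 not passing without ND AAV-CON replicate 1 (-0.599) or HFD AAV-CON replicate 1 (-0.66), and Id2 rose by 1.88 (SE 0.34) and passed under all 6. The nodal factor Isl1 had 0 counts in every library. Over these 6 lists together, 46.2% of 78 genes tested passed for the diet, 12.8% upward and 33.3% downward, against 43.3% of all genes, 22.7% upward and 20.6% downward. For the vector 43.6% passed, 30.8% upward and 12.8% downward, against 38.2% of all genes, 17.3% upward and 20.9% downward. Without HFD AAV-CON replicate 3 fewer genes of these lists passed. For the vector 5 intercalated disc genes then rose, and 3 patterning factors rose and 1 fell, against 7 and 2 with all libraries. Calls over all genes also dropped, from 6134 to 4050 for the diet and from 5410 to 2847 for the vector. With total-count scaling, calls over all genes lay mostly upward for the diet. Rises then outnumbered falls in each of these lists except the intercalated disc genes, so the larger share of falls depended on the scaling. For the vector, calls over all genes lay mostly downward with that scaling. Falls then outnumbered rises in each of the 6 lists, so the larger share of rises depended on the scaling too.

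Markers of cell types moved with these comparisons. Cardiomyocyte markers summed to 52500 to 55700 CPM for ND AAV-CON, 24700 to 42700 for HFD AAV-CON, and with the BCKDK vector 46400 to 51400, and 13 of 16 fell for the diet (8 with total-count scaling, and 5 without HFD AAV-CON replicate 3 or 7 without ND AAV-CON replicate 2). In bulk tissue fewer cells of a type and less RNA per cell cannot be told apart. Fibroblast markers, 11 of 14 of which rose for the diet (7 without HFD AAV-CON replicate 1 or 3 or ND AAV-CON replicate 3), summed to 2600 to 2690, 3490 to 5980 and 2460 to 2670 CPM in the same order. Macrophage markers, 11 of 12 of which rose, summed to 732 to 1000, 1960 to 3190 and 563 to 749 CPM. Of 14 endothelial markers 7 fell and 0 rose for the diet, with sums of 1390 to 1470, 966 to 1330 and 1420 to 1650 CPM. These counts were 3 and 1 with total-count scaling and 0 and 7 with cardiomyocyte scaling, and 11 markers fell without HFD AAV-CON replicate 2. The part of these cell types in the changes of the 7 genes was not tested.

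Other lists covered cell types that carry Gja5 or Hcn4, as well as pericytes, smooth muscle, neurons and Schwann cells. Arterial endothelial markers, of which 3 of 11 fell and 0 rose for the diet (2 and 1 with total-count scaling, 0 and 6 with cardiomyocyte scaling, and 1 fall without HFD AAV-CON replicate 3), summed to 189 to 212 CPM for ND AAV-CON, 164 to 177 for HFD AAV-CON, and with the BCKDK vector 178 to 216. Of 6 conduction cell markers tested of 9, 1 fell and 0 rose for the diet (0 and 1 with total-count scaling, and 0 falls without HFD AAV-CON replicate 1 or 3 or ND AAV-CON replicate 1 or 3), with sums of 132 to 169, 149 to 155 and 150 to 180 CPM. Smoc2 made up much of these sums, with means of 84.7, 68.2 and 89.5 CPM in the same order. Cntn2, a marker of Purkinje cells, averaged 0.894 ± 0.939, 0.195 ± 0.0534 and 0.581 ± 0.257 CPM (SD, n = 3). Atrial markers, with 2 rises and 1 fall among 6 tested of 9, summed to 125 to 247, 324 to 1520 and 98.5 to 213 CPM, most of it Nppa, which is also a ventricular stress gene. Pericyte and smooth muscle markers summed to 1480 to 1570, 894 to 1230 and 1400 to 1440 CPM, with 4 falls and 0 rises of 11. These counts were 2 and 3 with total-count scaling and 1 and 7 with cardiomyocyte scaling. Neuron and Schwann cell markers, with 2 rises and 2 falls of 10 tested (3 and 0 with total-count scaling, and 0 falls without HFD AAV-CON replicate 3 or ND AAV-CON replicate 2, or 1 without HFD AAV-CON replicate 1 or ND AAV-CON replicate 1 or 3), summed to 18.8 to 21.2, 26.9 to 50.1 and 19.0 to 23.3 CPM. The part of these cells in the results was not tested.

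Across the 9 libraries the log2 levels of Hcn2 and Cacnb2 had a Pearson r of 0.85, those of Cacnb2 and Gja1 0.77 and those of Hcn2 and Gja1 0.72. Cacna1g ran against Hcn2 (r = -0.63) and Gja5 (r = -0.76), and Hcn2 and Hcn4 had an r of 0.23. The points share 3 groups and their libraries, so these values are a description. The genes most like Hcn2 were Nt5dc2 (r = 0.987), Doc2g (0.987) and Lcmt1 (0.984), with 564 genes above 0.9. Most like Cacnb2 were Cfap298 (0.981), Hmcn2 (0.981) and Ptov1 (0.980), with 904 genes above 0.9, and most like Gja1 were Phf24 (0.965), Fign (0.962) and Irf2bp1 (0.961), with 71. Most like Hcn4 were Tmem170 (0.944), Smarcd1 (0.936) and Ednra (0.930), with 15. Most like Cacna1g were Asb6 (0.942), Gnb2 (0.918) and Cdr2l (0.909), with 12. Gja5 followed Cct4 (0.948), Rps19 (0.931) and Bloc1s2 (0.918), with 4 genes above 0.9. No gene passed 0.9 for Cacna1h, whose nearest were Hspbp1 (0.879), Lrpap1 (0.829) and Ccl11 (0.829).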

How the data were processed

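RNA was isolated from left ventricle with Trizol and made into mRNA libraries with a VAHTS kit, per the labels' protocols. The submitters' processing notes name HISAT2 2.0.5 and mm10; how reads were counted, with which annotation and strand setting, is not given in the sources. The authors deposited whole-number counts for each gene, without normalization. The 4142 unnamed loci, with 1.02% to 6.01% of counts, were left out. Library totals were 32803233 to 45483044, and replicate pairs differed by more than sampling noise (chi-square per degree of freedom at least 14.9). Pairs within HFD AAV-CON differed most, at 261, 63.6 and 73.9, against 14.9 to 23.3 within the other groups. The fit described next shares 1 estimate of the spread of a gene over all groups.

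In R 4.3.3, edgeR 4.0.16 was run with filterByExpr, which left 14160 genes, TMM factors, 1 coefficient per group over all 9 libraries and Benjamini-Hochberg adjustment over all genes at 0.05. Standard errors come from the F statistic. The common coefficient of biological variation was 18.6%. On simulated data for the diet comparison (13763 genes kept) the test recovered 84% of genes changed 2-fold and all of those changed 4-fold, with 7 false calls. The simulation gave every gene and library the same variation (18.6%) and raised, never lowered, far fewer genes than passed here. These rates may therefore not hold for comparisons with HFD AAV-CON, whose replicates differed more. Changed genes were also drawn only from those above a minimum expected count, so the recovery rates do not cover genes with the lowest counts. CPM was computed here from the counts. Ratios were tested with two-sided exact permutation tests. Named list genes are up to 4 with the smallest p in the diet or vector comparison plus paralogs of the 7 genes, and the 3 most correlated genes of each had an average log2 CPM of at least 1. Some genes that this rule would name are not reported here. Genes chosen after their values were seen are Bckdk, Myl2, Myl7, Isl1 and Kcne2. The genes, lists and tests were chosen with earlier results of these data known. Alternatives were other scalings, filters, DESeq2 1.42.0, limma-voom 3.58.1, a robust fit, a replicate block, fits of 2 groups and leaving out each library.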

Additional observations from a re-analysis of the deposited data

How the results depend on the processing

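Of the 4 calls among the 7 genes, the fall of Hcn2 under the diet was kept in each fit run except that scaled to cardiomyocyte genes. Leaving out each library in turn gave 1 to 3 called genes for the diet, 0 to 3 for the vector and 0 to 1 between HFD AAV-BCKDK and ND AAV-CON. For the vector 0 were called with no filter and 0 with only the 2 groups compared, and between HFD AAV-BCKDK and ND AAV-CON 1 was called with only 2 groups. Cacnb2 for the diet also missed the threshold with only 2 groups (adjusted p = 0.0783). The cause was not tested.

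Over all genes, 9242 were called for the diet with cardiomyocyte scaling and 4050 to 7325 when a library was left out, the lowest without HFD AAV-CON replicate 3 and the highest without replicate 2. For the vector the range was 2847 to 6978, with the same libraries at its ends. Between HFD AAV-BCKDK and ND AAV-CON, 347 genes were called, against 136 with total counts, 64 with cardiomyocyte scaling, 902 with DESeq2, 873 with only 2 groups, 107 with the replicate block and 43 to 744 when a library was left out. Rises made up 52.4% of calls for the diet and 45.2% for the vector, against 86.5% and 5.48% with total counts.

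With total-count scaling the sign turned for the diet in Hcn4 (0.0356), Cacna1h (0.256), Gja1 (0.0485) and Gja5 (0.248), for the vector in Cacna1h (-0.369), Cacnb2 (-0.00415), Gja1 (-0.228) and Gja5 (-0.259), and between HFD AAV-BCKDK and ND AAV-CON in Gja5 (-0.0114). With cardiomyocyte scaling it turned for the diet in Hcn4 (0.40), Cacna1h (0.599), Cacnb2 (0.097), Gja1 (0.421) and Gja5 (0.625), for the vector in Hcn2 (-0.108), Cacna1h (-0.543), Cacnb2 (-0.176), Gja1 (-0.429) and Gja5 (-0.464), and between HFD AAV-BCKDK and ND AAV-CON in Cacna1h (0.0561).

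Leaving out a library gave both signs for Cacna1h (diet -0.363 to 0.0489, vector -0.0908 to 0.323, HFD AAV-BCKDK against ND AAV-CON -0.203 to 0.112), and in the last comparison for Cacna1g (-0.139 to 0.437), Gja5 (-0.0721 to 0.133), the Cacna1g to Cacna1h log2 ratio (-0.047 to 0.3528) and the Gja5 to Gja1 log2 ratio (-0.0185 to 0.3306), whose vector difference ran from -0.2164 to 0.1327. None of these had passed a test.

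The replicate block changed no call among the 7 genes (Hcn2 -1.13, Cacnb2 -0.626 and Gja1 -0.347 for the diet, Hcn4 0.699 for the vector). Deviations of same-numbered libraries correlated at -0.22 to 0.192 and those of other numbers at -0.277 to 0.296, so the numbers were not taken to pair the libraries. Hcn4 had 68 to 128 counts a library, and the widest standard errors were those of Hcn4, Cacna1g and Cacna1h (0.24 to 0.26).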
